A study of Homo sapiens with 6 samples.

Results

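A set of 10 genes that make, bind or break down hyaluronan was followed in MRC5 fibroblasts, 10 of the 58676 gene identifiers in the deposited count table. They were taken by symbol: the synthases *HAS1*, *HAS2* and *HAS3*, the breakdown genes *HYAL1*, *HYAL2* and *CEMIP*, the receptor *CD44*, and the matrix proteins *VCAN*, *TNFAIP6* and *HAPLN1*. MRC5 is an established line of human lung fibroblasts, so these data describe 1 line and not donors. In 3 libraries the cells had spent 24 h in conditioned media (CM) from control ATII ER:KRASV12 cells (control ATII CM, called control CM). In the other 3 libraries the CM came from the same epithelial line after treatment with 4-hydroxytamoxifen (4-OHT), which switches on its ER:KRASV12 fusion (4-OHT ATII CM, called 4-OHT CM). Because 4-OHT was added to the cells that made the CM, RAS-dependent factors and 4-OHT carried over in the CM cannot be told apart. The comparison asks whether signals from RAS-activated ATII cells alter the fibroblast's hyaluronan genes. The labels do not say whether replicates came from separate cultures, so the p values measure the spread between these libraries, which may be technical.

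Hyaluronan is a very long, unsulfated chain of alternating glucuronic acid and N-acetylglucosamine. Unlike other glycosaminoglycans it is made at the plasma membrane by the HAS enzymes and extruded directly into the matrix, where versican, link proteins and TSG-6 organize it into a pericellular coat that CD44 anchors to the cell. CEMIP and the hyaluronidases cut the chain, and the fragments signal differently from the intact polymer. In the lung, hyaluronan builds up after injury and in fibrosis, and fibroblasts are a main source.

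Library totals ran from 17691849 to 26389449 counts. Control replicate 2, which had the lowest total, stood apart from the other controls, at -41.7 on the first principal component beside -7.43 and -0.083, and its counts differed from theirs by a chi-square of 6.06 and 5.30 per degree of freedom, beside 2.12 between those 2. The plot of alternatives shows 6 of the genes without it. The 8 fibroblast markers checked were all present, and 4 of them (*COL3A1*, *PDGFRA*, *LUM* and *DCN*) were higher in 4-OHT CM by edgeR at an adjusted p below 0.05. Of 8 lung epithelial markers, whose level in the ATII line itself was not measured here, 6 had at most 5 counts over all libraries and *NKX2-1*, *SFTPA1* and *KRT5* had none. Of endothelial and leukocyte markers, none passed the test, and the summed level of the leukocyte markers, nearly all of it *CD14* (adjusted p = 0.0597), was 0.609 to 0.952 CPM in control CM and 1.05 to 1.90 CPM in 4-OHT CM. The part of such cells in the values that follow was not tested. The summed level of the epithelial markers was 0.728 to 1.27 CPM in control CM and 0.799 to 1.14 CPM in 4-OHT CM. CPM here means counts scaled to 1e6 per library after edgeR's TMM scaling of library sizes.

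All 10 hyaluronan genes reached the filter of 10 counts summed over the 6 libraries, so none was left unmeasured. With edgeR's quasi-likelihood test, 0 of the 10 passed an adjusted p of 0.05, while 5.72% of the 19072 genes tested did. Adjusted p values given hereafter come from this edgeR test, corrected over all those genes, unless another tool is named. The log2 fold changes of the 10, and of the genes of a wider list that passed, were also recomputed under up to 14 alternatives, which were 2 other tools, 2 other scalings, 2 other count filters, removal of the trend on gene length, a replicate block and the omission of each of the 6 libraries (12 for *HAS1* and *HYAL1* and 13 for *HAPLN1*, which DESeq2 or filterByExpr left without a value). Without adjustment 4 of the 10 had a p below 0.05 (*HYAL2*, *CD44*, *CEMIP* and *HAPLN1*), beside 17.3% of all genes; 3 of them were higher and 1 was lower in 4-OHT CM (8.72% and 8.61% of all genes). DESeq2 passed 1 of the 7 to which it gave an adjusted p (7.69% of all such genes) and limma-voom passed 1 of the 10 (5.94% of all), in both tools *CD44* as lower. By direction the background was 3.92% higher and 3.77% lower with DESeq2 and 3.04% higher and 2.89% lower with limma-voom. The 3 values of one group lay wholly apart from those of the other in 4 of the 10, 3 with 4-OHT CM above (*HAS3*, *HYAL2* and *CEMIP*) and 1 with it below (*CD44*). Over all genes this was so for 22.1%, with 11.7% above and 10.4% below. The log2 fold change was above 0 in 8 of the 10, and its median was 0.12, beside -0.0020 over all genes. Regardless of sign, the median size over all genes was also 0.12. Among the 8, *HAS1*, *HAS2* and *VCAN* changed sign when 1 library was left out. As these are bulk libraries, fewer cells with a transcript and less transcript per cell cannot be told apart.

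**Figure D1:**
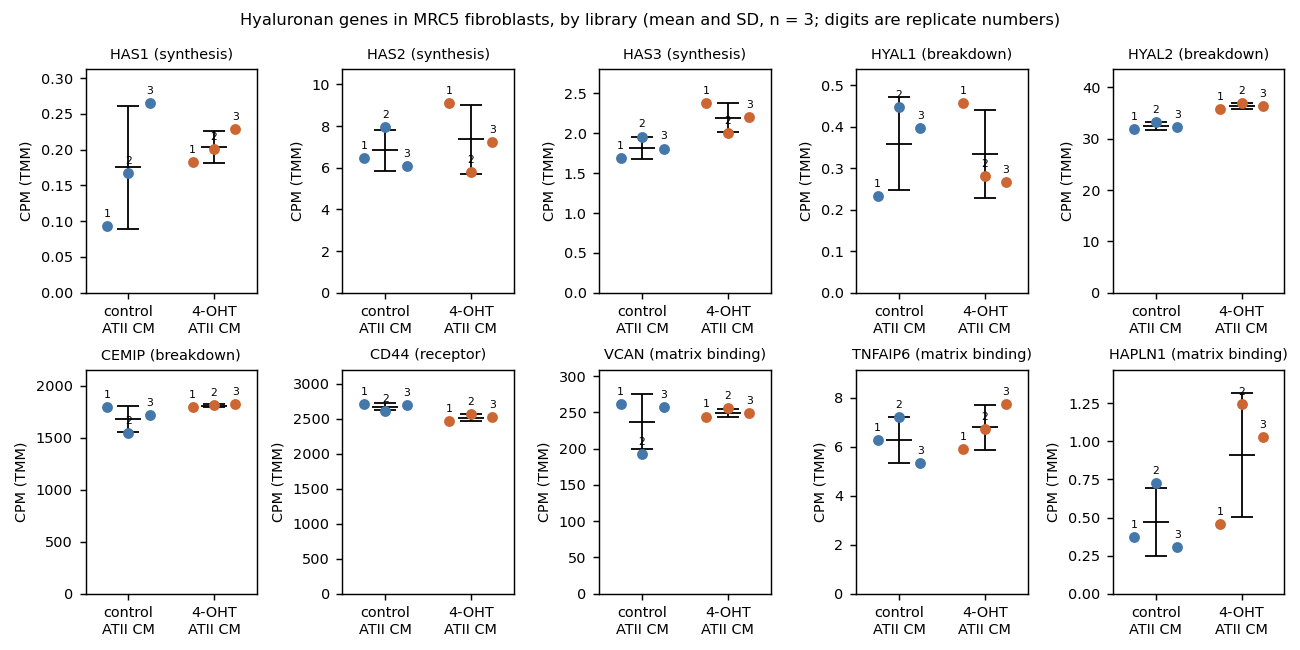
Level of each of the 10 hyaluronan genes in every library, in CPM on a linear axis from 0; blue points are control CM and orange points 4-OHT CM, digits are replicate numbers, and bars give the mean and SD (n = 3). *HYAL2* and *CD44* show tight groups that do not overlap, whereas *HAS1*, *HYAL1* and *HAPLN1*, all below 1.3 CPM, scatter widely.

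Levels of different genes were compared as CPM per kilobase of merged exons, averaged over the 6 libraries. *CD44* was the most abundant at 260 CPM per kilobase, in the 99.5th percentile of genes tested, and *CEMIP* followed at 229. *VCAN* was at 16.4, *HYAL2* at 7.57, *TNFAIP6* at 4.14 and *HAS2* at 1.69. The lowest were *HAS3* at 0.379, *HYAL1* at 0.111, *HAPLN1* at 0.0992 and *HAS1* at 0.0846. The ranges of *HYAL1*, *HAPLN1* and *HAS1* over the 6 libraries overlapped, so their order among themselves is not resolved, while the other neighbours in this order did not overlap. Both CM groups thus held abundant RNA for a receptor and a breakdown gene beside much less synthase RNA. Among genes tested, *HAS2* was in the 47.8th percentile, *HAS3* in the 28.9th and *HAS1* in the 10.7th. Merged exons include those of all annotated transcripts, so the scale understates a gene that uses a short one.

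**Figure D2:**
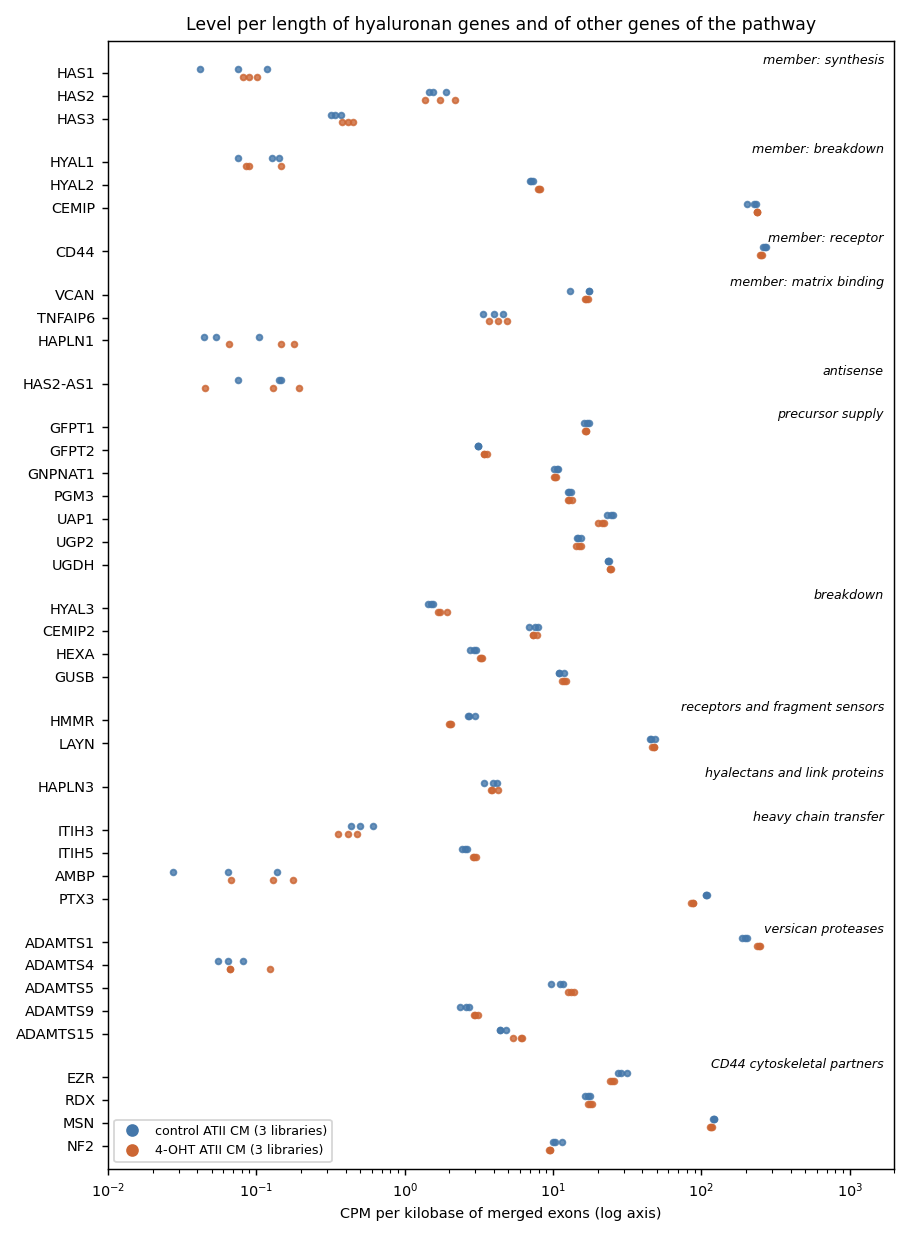
Level per length, in CPM per kilobase of merged exons on a log axis, of the 10 hyaluronan genes (rows marked member) and of tested genes of a wider hyaluronan list, with 1 point per library (blue control CM, orange 4-OHT CM). *CD44*, *CEMIP* and *ADAMTS1* stand highest, with means of 219.5 to 260, while *HAS2*, the highest of the synthases, has a mean of 1.69.

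Promoter sequence from RefSeq (GRCh38.p14) was on hand for 9 of the 10 genes, the exception being *HAS2*. The 250 bases before each RefSeq start were searched on both strands for the letters of 5 motifs: the GC box GGGCGG, the AP-1 site TGANTCA, the cAMP response element TGACGTCA, the E-box CACGTG and the core of the promoter box that binds TBP, TATAAA. GC boxes were found in 6 of the 9 (66.7%, beside 42.6% of 35116 promoters), and each of the other motifs in 1 gene. The cAMP response element letters stood in *HAS1* 69 bases before the start (1.65% of all promoters), AP-1 letters in *TNFAIP6* 129 bases before it (6.57%), the E-box in *HAS3* (6.35%) and TATAAA in *CEMIP* 30 bases before it (10.7%). A match describes letters and not a bound site. Stretches of 3 genes are printed 5′ to 3′ on the gene's strand, ending before the first exon of the count table. Motif matches are in capitals, and a GC box on the other strand reads CCGCCC. *HAS1* is shown for its cAMP response element (chr19:51723995-51724241, minus strand). *CEMIP*, the most abundant of the enzymes, is shown for 3 GC boxes (chr15:80779120-80779342, plus strand). Its TATAAA begins in the last 3 bases shown and runs past them. *TNFAIP6* is shown for its AP-1 letters (chr2:151357342-151357591, plus strand).
HAS1: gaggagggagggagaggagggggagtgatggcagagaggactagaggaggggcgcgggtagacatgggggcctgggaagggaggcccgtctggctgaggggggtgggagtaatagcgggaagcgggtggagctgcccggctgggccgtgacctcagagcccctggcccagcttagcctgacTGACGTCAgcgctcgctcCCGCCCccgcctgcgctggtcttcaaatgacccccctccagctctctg
CEMIP: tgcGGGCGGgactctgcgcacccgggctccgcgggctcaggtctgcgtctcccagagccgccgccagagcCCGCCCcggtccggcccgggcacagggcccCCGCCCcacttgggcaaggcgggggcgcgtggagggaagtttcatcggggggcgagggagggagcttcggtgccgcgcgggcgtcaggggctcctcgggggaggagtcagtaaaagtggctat
TNFAIP6: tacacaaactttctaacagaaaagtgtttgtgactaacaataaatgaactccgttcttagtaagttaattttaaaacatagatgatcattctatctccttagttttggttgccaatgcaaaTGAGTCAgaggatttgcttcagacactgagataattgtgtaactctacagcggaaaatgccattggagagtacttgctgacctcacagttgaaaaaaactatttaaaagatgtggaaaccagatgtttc

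The synthases differ in the length of chain they release and in how tightly they are controlled, and HAS2 is the main enzyme of fibroblasts and the one the embryo cannot do without. *HAS2* (ENSG00000170961, chromosome 8 of GRCh38, 121612116 to 121641390, minus strand) was at 6.47, 7.95 and 6.09 CPM in replicates 1 to 3 of control CM and at 9.09, 5.77 and 7.23 CPM in those of 4-OHT CM. The highest and the lowest values both came from 4-OHT CM, and the groups overlapped. Its log2 fold change was 0.11 (standard error, SE, 0.150, adjusted p = 0.784), with a 95% interval of -0.21 to 0.43 that leaves room for 0.864 to 1.35 times the control level. Without 4-OHT CM replicate 1 the log2 fold change was -0.057, so its direction rests on that library. *HAS2-AS1*, the antisense transcript that shares 201 exon bases with *HAS2*, had 4 to 18 counts per library and a log2 fold change of 0.047 (adjusted p = 0.978).

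*HAS3* (ENSG00000103044, chromosome 16, 69105564 to 69118719, plus strand), which makes shorter chains, was at 1.69, 1.96 and 1.81 CPM in control CM and at 2.38, 2.01 and 2.21 CPM in 4-OHT CM. The groups did not overlap, although 4-OHT replicate 2 lay close to control replicate 2. On the log2 scale the difference was 0.27 (SE 0.182, 95% interval -0.11 to 0.66, adjusted p = 0.50). It had 35 to 58 counts per library. Of its exon length, 6.9% is shared with *CHTF8* on the opposite strand, a gene with 1532 to 2238 counts per library. *CHTF8* was at 82.6 ± 3.56 CPM in control CM and 87.0 ± 3.18 CPM in 4-OHT CM (SD, n = 3 each), which is 0.075 on the log2 scale (adjusted p = 0.409), the same sign as *HAS3*, and the sources used here do not state whether counting used the strand. *HAS1* (ENSG00000105509, chromosome 19, 51713112 to 51723994, minus strand) had 2, 3 and 6 counts in control CM and 4, 5 and 6 in 4-OHT CM, and a difference was not detectable at this depth.

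Per kilobase, *HAS2* made up 79.3% ± 2.93 (SD, n = 3) of the summed synthase level in control CM and 77.3% ± 2.88 in 4-OHT CM. *HAS3* held 16.8% ± 1.03 and 18.6% ± 1.95, and *HAS1* held 3.86% ± 2.07 and 4.13% ± 0.977. Each pair of shares differed by less than 1 SD of the more variable group. The summed level ran from 1.90 to 2.34 CPM per kilobase in control CM and from 1.85 to 2.70 in 4-OHT CM, and the groups overlapped.

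Among the breakdown genes, *CEMIP* encodes a hyaluronan-binding protein that fibroblasts need to depolymerize the chain outside the lysosome. *CEMIP* (ENSG00000103888, chromosome 15, 80779343 to 80951776, plus strand), whose upstream stretch with 3 GC boxes is printed above, was at 1791, 1546 and 1715 CPM in control CM and at 1797, 1811 and 1821 CPM in 4-OHT CM. The 3 libraries of 4-OHT CM lay close together and just above the highest control, while control replicate 2 lay far below the other controls. The log2 fold change was 0.10 (SE 0.0400, 95% interval 0.018 to 0.19, unadjusted p = 0.0203, adjusted p = 0.173). Its size depended on the controls, at 0.046 without control CM replicate 2 (adjusted p = 0.289) and 0.15 without control CM replicate 1 (adjusted p = 0.0315). It also passed without a filter beyond 1 count (adjusted p = 0.00661).

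*HYAL2* encodes a membrane-anchored hyaluronidase that cuts long chains into intermediate fragments. *HYAL2* (ENSG00000068001, chromosome 3, 50317790 to 50322906, minus strand) was at 31.8, 33.3 and 32.2 CPM in control CM and at 35.9, 36.9 and 36.4 CPM in 4-OHT CM. The spread within each group was small, with an SD of 0.747 and 0.519 CPM, and the lowest 4-OHT library stood well above the highest control. The log2 fold change of 0.17 (SE 0.0473, 95% interval 0.066 to 0.27), a level 12.3% above control, had an unadjusted p of 0.00294 and an adjusted p of 0.0507, just short of the threshold. It passed in 4 of 14 alternatives, with adjusted p values from 0.0309 without control CM replicate 2 to 0.175 without 4-OHT CM replicate 3, and its direction held in all 14. Exons of *HYAL2* share 509 bases with *TUSC2* on the same strand, and *TUSC2* was at 30.9 ± 3.80 and 29.6 ± 1.51 CPM (SD, n = 3 each), which is -0.057 on the log2 scale (adjusted p = 0.767).

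*HYAL1*, the lysosomal hyaluronidase (ENSG00000114378, chromosome 3, 50299889 to 50312381, minus strand), had 5, 8 and 9 counts in control CM and 10, 7 and 7 in 4-OHT CM. Its 95% interval of -1.06 to 0.84 on the log2 scale spans both directions. Per kilobase *CEMIP* supplied 96.8% ± 0.321 of the summed level of these 3 genes in control CM and 96.7% ± 0.0328 in 4-OHT CM (SD, n = 3 each), at 30.3 times the level of *HYAL2*.

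CD44 is the main cell surface receptor for hyaluronan and ties the coat to the actin cytoskeleton. *CD44* (ENSG00000026508, chromosome 11, 35138870 to 35232402, plus strand) was at 2707, 2615 and 2697 CPM in control CM and at 2467, 2564 and 2527 CPM in 4-OHT CM. All 3 libraries of 4-OHT CM lay below all 3 controls. The log2 fold change was -0.086 (SE 0.0254, 95% interval -0.14 to -0.032), a level 5.76% below control in the fitted model, with an unadjusted p of 0.00407 and an adjusted p of 0.0629. *CD44* passed with DESeq2 (adjusted p = 0.0377) and limma-voom (adjusted p = 0.0178), and 2 other alternatives also called it. Over all 14 alternatives its adjusted p ran from 0.00447 without control CM replicate 2 to 0.271 without 4-OHT CM replicate 1, and its log2 fold change from -0.10 to -0.066. The call therefore depends on the tool and on single libraries, while the size stayed under 0.11 on the log2 scale. The counts cover the whole gene and cannot show which of the variant exons of *CD44* were spliced in.

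**Figure D3:**
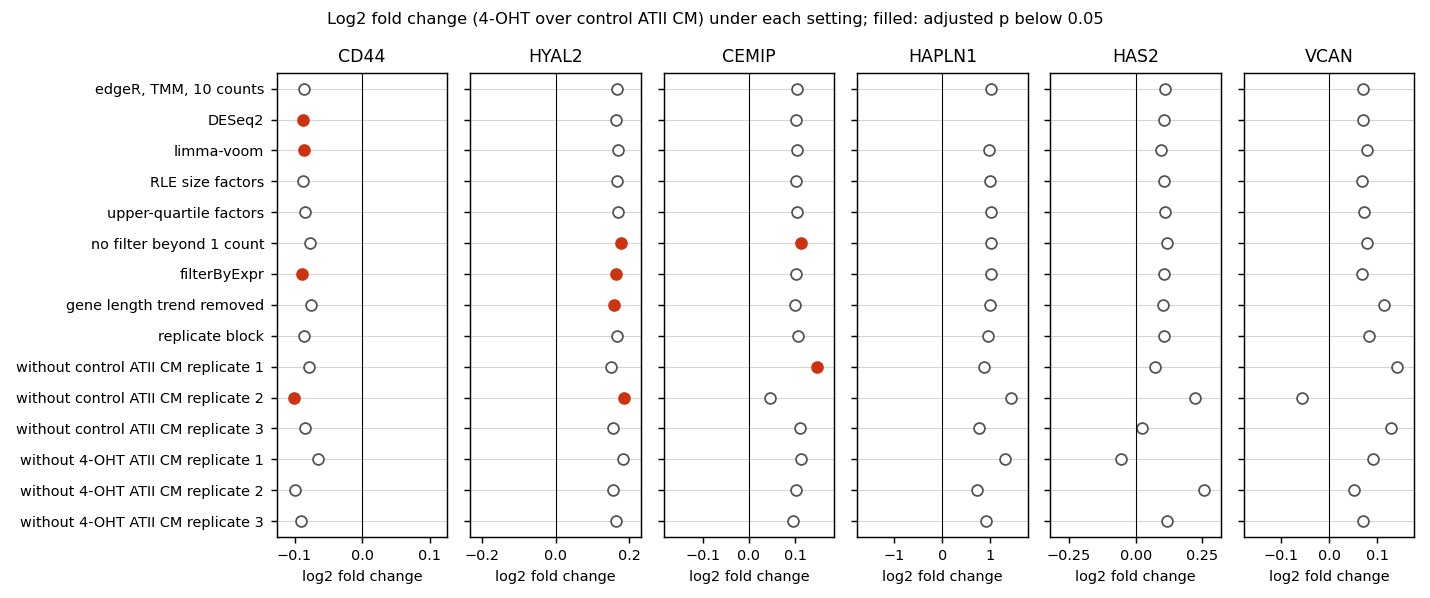
Log2 fold change of 6 hyaluronan genes (4-OHT over control CM) under the reported test, in the top row, and 14 alternatives; filled points have an adjusted p below 0.05, and *HAPLN1* has no DESeq2 point because that tool gave no adjusted p. *CD44* stays below 0 and *HYAL2* and *CEMIP* above 0 in every row, whereas *HAS2* and *VCAN* each cross 0 when 1 library is left out.

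Versican is the large proteoglycan that binds hyaluronan at one end and carries chondroitin sulfate. *VCAN* (ENSG00000038427, chromosome 5, 83471465 to 83582303, plus strand) was at 261, 193 and 258 CPM in control CM and at 244, 255 and 249 CPM in 4-OHT CM. Control replicate 2 stood far below the rest, and the other 2 controls lay above all 3 libraries of 4-OHT CM. On the log2 scale the difference was 0.070 (SE 0.0775, 95% interval -0.095 to 0.23, adjusted p = 0.723). It was -0.056 (adjusted p = 0.347) without control CM replicate 2, so no direction can be read. *CEMIP* and *VCAN* were both lowest in that library, which also had the fewest counts of all.

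*TNFAIP6* encodes TSG-6, which moves heavy chains of inter-alpha-inhibitor onto hyaluronan and is a classic product of inflamed fibroblasts. *TNFAIP6* (ENSG00000123610, chromosome 2, 151357592 to 151380048, plus strand) was at 6.28, 7.22 and 5.34 CPM in control CM and at 5.89, 6.74 and 7.72 CPM in 4-OHT CM. The groups overlapped. Its log2 fold change was 0.13 (SE 0.133, 95% interval -0.16 to 0.41, adjusted p = 0.707). It passed in 0 of 14 alternatives, and the log2 fold change was 0.011 without control CM replicate 3, 0.016 without 4-OHT CM replicate 3 and 0.23 without control CM replicate 2.

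*HAPLN1* encodes the link protein that locks versican onto hyaluronan. *HAPLN1* (ENSG00000145681, chromosome 5, 83637805 to 83721613, minus strand) had 8, 13 and 7 counts in control CM and 10, 31 and 27 in 4-OHT CM. Replicates 2 and 3 of 4-OHT CM were the highest, while replicate 1 lay below control replicate 2. The log2 fold change of 1.00 was the largest of the 10 in size, with a SE of 0.408, a 95% interval of 0.14 to 1.87, an unadjusted p of 0.0262 and an adjusted p of 0.20. Over 13 alternatives it ran from 0.72 to 1.42 with the lowest adjusted p at 0.0601, so the value stayed above 0 and was not called in any of them.

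Another 45 genes of hyaluronan metabolism, grouped by role, were read in the same fit, and 29 of them had enough counts to be tested. Of the 29, 6 were higher and 4 lower in 4-OHT CM (34.5%, beside 5.72% of all genes, with 2.95% higher and 2.76% lower). Their median log2 fold change was 0.038. The list was chosen with earlier results of these data known, so these counts only describe it, and they were not tested as a set. With filterByExpr, which kept fewer genes, 10 of 28 were called, beside 1172 of 14599 genes. Without 4-OHT CM replicate 2 the number called was 4, and without control CM replicate 2 it was 8.

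Proteases that cleave versican were the role in which most genes rose, 4 of 5 tested. *ADAMTS1* was at 1432, 1331 and 1392 CPM in control CM and at 1676, 1729 and 1744 CPM in 4-OHT CM, a log2 fold change of 0.31 (SE 0.0303, adjusted p = 2.24e-05). Its groups were far apart, and per kilobase it was 13.4 times as abundant as its substrate's gene *VCAN*. *ADAMTS15* rose from 25.6 ± 1.56 to 33.3 ± 2.30 CPM (SD, n = 3 each), which is 0.37 on the log2 scale (SE 0.0638, adjusted p = 0.00211). *ADAMTS5* rose from 98.4 ± 9.7 to 119 ± 5.79 CPM and *ADAMTS9* from 27.4 ± 1.94 to 32.2 ± 1.04 CPM (SD, n = 3 each), with log2 fold changes of 0.28 and 0.23 (adjusted p = 0.0088 and 0.0289). *ADAMTS1* and *ADAMTS15* passed in all 14 alternatives, *ADAMTS5* in 13 and *ADAMTS9* in 10. Control replicate 2 was the lowest control for *ADAMTS1*, *ADAMTS5* and *ADAMTS9*, and without it their log2 fold changes were 0.28, 0.20 and 0.18 (adjusted p = 3.96e-07, 0.00375 and 0.0591). Without 4-OHT CM replicate 2 the adjusted p of *ADAMTS5* was 0.0691 and that of *ADAMTS9* 0.139, and the latter was 0.0819 without control CM replicate 3 and 0.0920 without 4-OHT CM replicate 3. *ADAMTS4*, with 12 to 32 counts per library, had a log2 fold change of 0.35 (95% interval -0.34 to 1.04), and *ADAMTS20*, with 4 counts in all, was not tested. The 4 genes that rose also act on other matrix proteins, and the cleavage of versican was not measured.

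Among genes of heavy chain transfer, in which TSG-6 takes part, *PTX3* fell and *ITIH5* rose. *PTX3* encodes pentraxin 3, which cross-links the heavy chains in a hyaluronan matrix. It was at 212, 208 and 209 CPM in control CM and at 171, 166 and 169 CPM in 4-OHT CM, a log2 fold change of -0.31 (SE 0.0331, adjusted p = 4.35e-05), and it passed in all 14 alternatives. Its exons share 71 bases with *VEPH1* on the opposite strand. *VEPH1* had 198, 165 and 204 counts in control CM and 161, 185 and 159 in 4-OHT CM, not scaled to library totals. *PTX3* had 3709 to 4743 counts per library. *ITIH5*, which encodes an inter-alpha-inhibitor heavy chain, rose from 37.2 ± 1.59 to 43.4 ± 1.14 CPM (SD, n = 3 each), which is 0.22 on the log2 scale (adjusted p = 0.0115), and passed in 12 of 14, with an adjusted p of 0.0542 without control CM replicate 3 and 0.0762 without 4-OHT CM replicate 2. *ITIH1*, *ITIH2* and *ITIH4* had at most 7 counts over all libraries.

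Apart from *CD44*, 2 of 7 receptors and fragment sensors had enough counts to be tested. *LAYN*, which encodes the hyaluronan receptor layilin, was the most abundant of them at 47.1 CPM per kilobase, and *CD44* stood at 5.51 times that level. It was at 147 ± 6.22 CPM in control CM and 149 ± 2.28 CPM in 4-OHT CM (SD, n = 3 each), with a 95% interval of the log2 fold change from -0.057 to 0.11. *HMMR*, which encodes RHAMM, a hyaluronan-binding protein that also serves the mitotic spindle, fell from 10.9 ± 0.611 to 7.95 ± 0.175 CPM (SD, n = 3 each), which is -0.46 on the log2 scale (SE 0.0880, adjusted p = 0.00497), and passed in all 14 alternatives. All 8 mitotic genes read beside it also fell, by 0.47 to 0.81 on the log2 scale, and their summed level was 299.5 to 318 CPM in control CM and 195 to 216 CPM in 4-OHT CM. The part of cell division in the value of *HMMR* was not tested. *LYVE1*, *STAB1*, *STAB2*, *TLR2* and *TLR4* had at most 9 counts each over all libraries.

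Of 7 genes that supply the sugar nucleotides for the chain, 1 fell. *UAP1*, which forms UDP-N-acetylglucosamine, fell from 83.7 ± 4.21 to 72.9 ± 3.47 CPM (SD, n = 3 each), which is -0.20 on the log2 scale (SE 0.0466, adjusted p = 0.0192), and passed in 11 of 14 alternatives. Its adjusted p was 0.0713 without control CM replicate 1, 0.0573 without 4-OHT CM replicate 1 and 0.120 without 4-OHT CM replicate 2. *UGDH*, which forms UDP-glucuronic acid, was the most abundant per kilobase at 24.0 and had a log2 fold change of 0.047 (95% interval -0.027 to 0.12). The other 5 ran from -0.029 to 0.15 and did not pass.

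For the last steps of breakdown, *HEXA* rose from 36.6 ± 1.66 to 41.5 ± 0.622 CPM (SD, n = 3 each), which is 0.17 on the log2 scale (adjusted p = 0.0414), but passed in 5 of 14 alternatives only. It was lost on leaving out any 1 library, with adjusted p values of 0.0711 to 0.125, with DESeq2 (adjusted p = 0.10) and with limma-voom (adjusted p = 0.0504). The membrane relative of CEMIP, *CEMIP2*, had a log2 fold change of 0.0087 (95% interval -0.095 to 0.11). *HYAL3* and *GUSB* did not pass either, and *HYAL4* and *SPAM1* had no count. *HAPLN3* was the only other link protein or hyalectan tested, with a log2 fold change of 0.038 (adjusted p = 0.882).

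Of 4 genes for cytoskeletal partners of CD44, *EZR*, which encodes ezrin, fell from 97.8 ± 6.43 to 83.5 ± 2.60 CPM (SD, n = 3 each). That is -0.23 on the log2 scale (SE 0.0467, adjusted p = 0.00827). *EZR* passed in 13 of 14 alternatives, with an adjusted p of 0.0646 without 4-OHT CM replicate 2. *MSN*, encoding moesin and the most abundant of the 4 at 119 CPM per kilobase, had a log2 fold change of -0.062 (adjusted p = 0.255), and *NF2*, encoding merlin, one of -0.16 (adjusted p = 0.064). In both, the 3 libraries of 4-OHT CM lay below the controls, as for *CD44*. *RDX*, encoding radixin, was at 0.056 (adjusted p = 0.552).

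**Figure D4:**
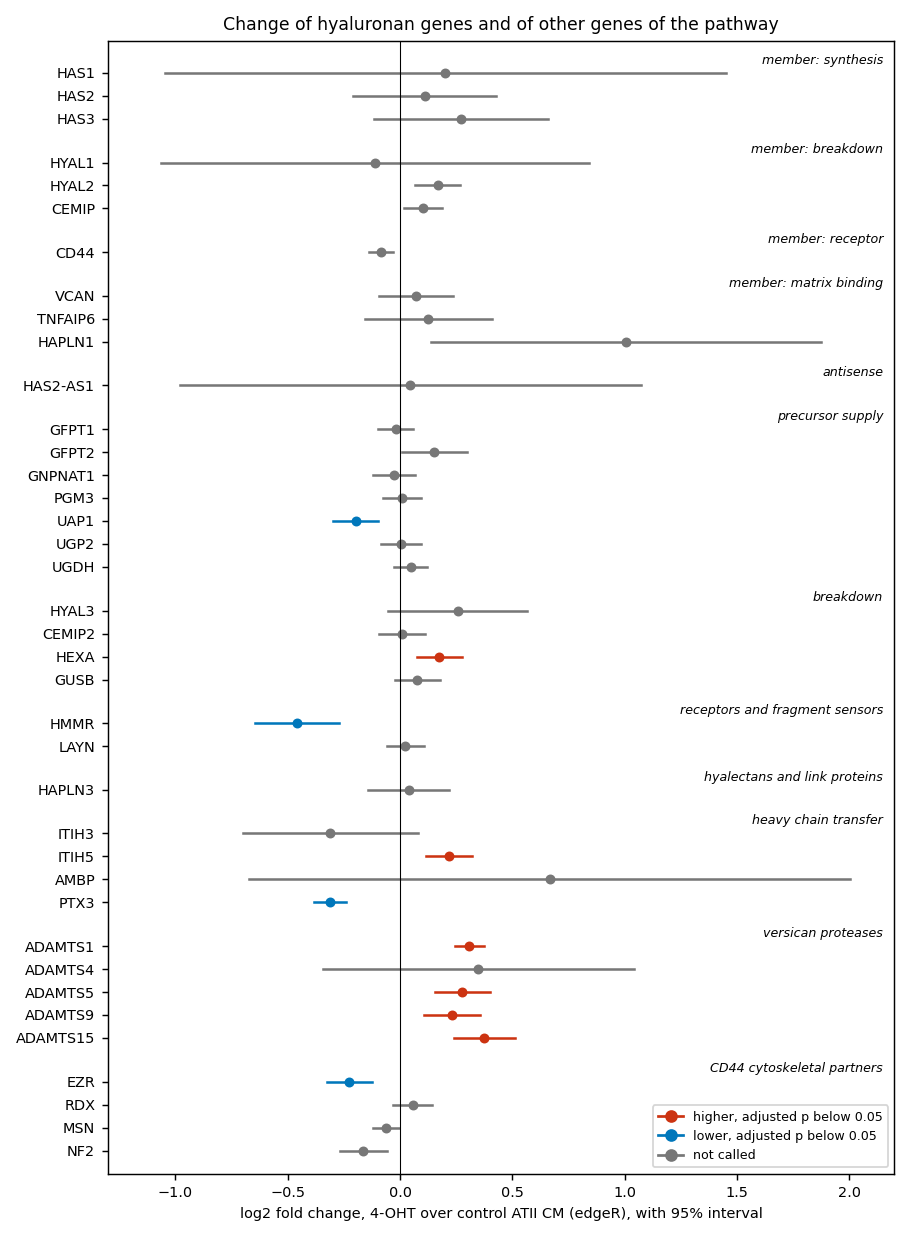
Log2 fold change (4-OHT over control CM) with its 95% interval for the 10 hyaluronan genes (rows marked member) and tested genes of the wider list, grouped by role; red genes rose and blue genes fell at an adjusted p below 0.05, grey genes did not pass. Every one of the 10 is grey, and 4 of the 5 versican proteases are red.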

How the data were processed

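The RNA-Seq libraries of MRC5 cells, 3 per CM, were grouped by their sample titles. By the submitters' notes and the paper's methods, trimming used Trim Galore, mapping to GRCh38 used HISAT2 2.1.0 and counting used featureCounts 1.6.5, and the authors deposited raw counts per gene without normalization, beside each gene's merged exon length in bases. The annotation release, strand setting and handling of multimapping reads are not given in the sources used here. The 45 identifiers listed on both X and Y were added. Symbols came from GENCODE release 44, whose genes overlap those of the table on the same strand for 99.97% of shared identifiers.

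Genes with at least 10 summed counts were tested with edgeR 4.0.16 (R 4.3.3; TMM, quasi-likelihood test, group as the only term, Benjamini-Hochberg adjustment over all 19072 genes, threshold 0.05). Standard errors (SE) are the size of the log2 fold change over the square root of its F value, and 95% intervals use the test's degrees of freedom; intervals are not adjusted for multiple testing. Alternatives were DESeq2 1.42.0, limma-voom (limma 3.58.1), RLE and upper-quartile factors, other count filters, removal of each library's trend on gene length (splines with 5 degrees of freedom), a replicate block and omission of each library. The edgeR fit, both other tools, RLE factors, the block and the length correction were checked on simulated counts. The 10 genes and the lists were chosen with earlier results of these data known. Named genes are the 10, the list genes that passed, the most abundant gene of each role and genes overlapping the 10, with others named to account for a list; 1 gene of the wider list is counted in its totals but not reported here. Copies of the 10 were sought with minimap2 2.31 on 261 alternate contigs, and none was found there; among other genes' transcripts, *HYAL2* had a near-identical one in *TUSC2*, which lies at the same locus.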

Additional observations from a re-analysis of the deposited data

How the results depend on the processing

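The number of the 10 hyaluronan genes called was 0 with edgeR. It was 1 with DESeq2, which left some of the 10 without an adjusted p, 1 with limma-voom and 1 with the gene length trend removed. Of all genes, those fits called 954 of 12411, 1132 of 19072 and 1254 of 19072. The number was 2 without a filter beyond 1 count, beside 1601 of 27749 genes. With filterByExpr, which tested 8 of the 10, it was 2, beside 1172 of 14599 genes. Leaving out 1 library gave 0 to 2. Without control CM replicate 1 it was 1 (*CEMIP*), beside 799 of 18551 genes. Without control CM replicate 2 it was 2 (*CD44* and *HYAL2*), beside 1530 of 18682 genes. RLE and upper-quartile factors gave 0. For the wider list the range on leaving out 1 library was 4 to 9 around 10, and for all genes 533 to 1530 around 1090, with 1530 without control replicate 2, 663 without control replicate 3, 615 without 4-OHT replicate 3 and 533 without 4-OHT replicate 2. Leaving out 1 library gave log2 fold changes of -0.11 (without control replicate 1) to 0.65 for *HAS1*, -0.057 (without 4-OHT replicate 1) to 0.26 for *HAS2*, and -0.056 (without control replicate 2) to 0.14 for *VCAN*; for *TNFAIP6* they were 0.011 to 0.23. For *HYAL1* they were -0.37 to 0.054 (without control replicate 2), and 0.029 without 4-OHT replicate 3. Those named are opposite in sign to the value from all libraries. The cause was not tested. The share of *HAS2* among the synthases was 77.3% and 75.1% from plain counts. Same-numbered libraries did not deviate together (correlations of -0.014, -0.10 and -0.093 over 9691 genes). Between libraries of different numbers the correlations ran from -0.064 to 0.16. With so few libraries this cannot show whether same-numbered ones were prepared together, and the labels do not say. The replicate block gave 0 of the 10, 9 genes of the wider list (*HEXA* was lost, adjusted p = 0.0574) and 985 of all. Depth limits *HAS1*, *HYAL1* and *HAPLN1*, with 2 to 31 counts per library.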

Other observations

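*HYAL3*, *HYAL1* and *HYAL2* lie close together on chromosome 3. Exons of *HYAL3* overlap those of *IFRD2* and *NAA80*, and exons of *HYAL2* those of *TUSC2*. *HYAL3* was at 3.05, 3.14 and 2.91 CPM in control CM and at 3.93, 3.41 and 3.54 CPM in 4-OHT CM, so that, as in *HYAL2*, all 3 libraries of 4-OHT CM lay above the controls. Its log2 fold change was 0.26 (SE 0.146, adjusted p = 0.405). The partners had values of the other sign, with *IFRD2* at -0.16 (adjusted p = 0.140), *NAA80* at -0.18 (adjusted p = 0.56) and *TUSC2* at -0.057 (adjusted p = 0.767), and none of these genes passed. *MESD*, which shares 224 exon bases with *CEMIP* on the opposite strand, was at 78.7 ± 1.78 CPM in control CM and 73.5 ± 0.590 CPM in 4-OHT CM (SD, n = 3 each), which is -0.099 on the log2 scale (adjusted p = 0.158), opposite in sign to that of *CEMIP*.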
